A study of Mus musculus with 2 samples.

Results

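Interferon response genes are described here in Baf53a- and Baf53b-expressing, Baf53a-deficient mouse ES cells, on 2 arrays. The list holds 34 genes of antiviral sensing, interferon signalling and antiviral defence, given as gene names with earlier results of these data known, and a gene was matched when the RefSeq accession of a probe mapped to its symbol. Of the 34 genes, 32 had a matched probe, among 20823 genes with a symbol on the array, and they were read by 39 probes. Of these 32 genes, 26 were well above background in both conditions by a flag of the scanner software, which sets the background limit, 1 in Baf53b-expressing cells only, and 5 in neither. None of the 26 differed by 2-fold or more. In Baf53b-expressing cells 11 were higher and 15 lower, and their median log2 difference was -0.04.

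Both groups were E14-derived Tet-inducible Baf53a cKO ES cells of 1 clone, in which short CRISPR/Cas9 deletions disrupt both Baf53a alleles and a Tet-off, CRISPR-resistant Baf53a is expressed until Tet is added. The cells were grown on gelatin with LIF and were transfected by lipofection with 3 μg of pCAGIP-Myc-Baf53a or pCAGIP-Myc-Baf53b, expression vectors driven by the ubiquitous CAG promoter. Tet at 1 μg/mL was given from 48 h after transfection for 6 days in both groups. RNA of 1 culture per condition was hybridised to 1 array that uses 1 colour, so differences could not be set against a spread between cultures and were not tested, and an effect of the vector cannot be told apart from a difference between cultures. Both groups carried plasmid DNA, the Baf53a mutations and Tet. No array of untransfected cells was analysed here, and the effect of transfection on these genes was therefore not measured.

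As background, cells detect foreign nucleic acid with receptors in the cytosol and in endosomes. RIG-I and MDA5 recognise RNA and signal through MAVS, cGAS recognises DNA and signals through STING, and Tlr3 recognises double-stranded RNA. These routes activate Irf3 and Irf7, which switch on the interferon genes. Secreted interferon binds its receptor, the kinases Jak1 and Tyk2 are activated, and a factor that contains Stat2 and Irf9 binds the interferon-stimulated response element in the promoters of antiviral genes. Pluripotent cells are known for a weak interferon response, and some antiviral genes, such as those of the Ifitm family, are expressed in them without interferon.

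The response element was searched for in the promoters of the members. They were listed as interferon response genes, so a share above that of all genes can follow from the choice. Promoter windows of 300 bases, 250 before and 50 after each annotated start, were taken from RefSeq (GRCm38.p6) and searched on both strands for the core of this element, GAAA followed by any 2 bases and a second GAAA. On the strand opposite to the gene it reads TTTC, any 2 bases and TTTC. Of the 34 members, 28 had a window, and 15 of these (53.6%) held the motif, against 3.99% of 27025 genes with a window of the same length. The other genes of the pathway held it in 23 of 98 (23.5%). The interferon-gamma activated site, TTC and GAA with any 3 bases between them, reads the same on both strands and was found in 8 of the 28 members (28.6%) and in 9.55% of all genes. Both motifs can share bases, and 2 matches of the second overlapped a match of the first among the members. A match describes letters in a window and is not evidence of binding. Stretches before the start are given for 7 members, which were picked to cover genes with a probe that read alike on both arrays (Isg15, Cxcl10, Bst2), those with the highest and the lowest difference (Oas3, Slfn8) and 2 that were not well above background (Ifit1, Ifit3), with each match in capitals and written 5′ to 3′ on the strand of the gene.
Isg15 (chr4:156200855-156200916, minus strand): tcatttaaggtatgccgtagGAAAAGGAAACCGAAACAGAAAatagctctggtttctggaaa
Cxcl10 (chr5:92349073-92349122, minus strand): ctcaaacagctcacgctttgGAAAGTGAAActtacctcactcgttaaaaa
Bst2 (chr8:71537567-71537622, minus strand): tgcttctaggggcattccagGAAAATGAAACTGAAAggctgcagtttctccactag
Oas3 (chr5:120777705-120777754, minus strand): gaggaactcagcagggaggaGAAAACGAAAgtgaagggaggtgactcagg
Slfn8 (chr11:83020829-83020878, minus strand): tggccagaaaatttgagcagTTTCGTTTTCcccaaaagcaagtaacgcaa
Ifit1 (chr19:34640765-34640833, plus strand): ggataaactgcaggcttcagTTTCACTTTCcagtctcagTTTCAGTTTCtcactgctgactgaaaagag
Ifit3 (chr19:34583353-34583436, plus strand): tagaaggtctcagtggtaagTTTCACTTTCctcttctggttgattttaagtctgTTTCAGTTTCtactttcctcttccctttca

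The 15 members held 22 matches, between 222 bases before and 33 bases after the start. Isg15 held 3 overlapping matches, and Oas1a, Ifit1, Ifit3, Ifitm3 and Bst2 held 2 each. In 11 members a match lay before the start, and in Ifih1, Ddx58, Ifitm3 and Eif2ak2 all matches lay after it.

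**Figure D1:**
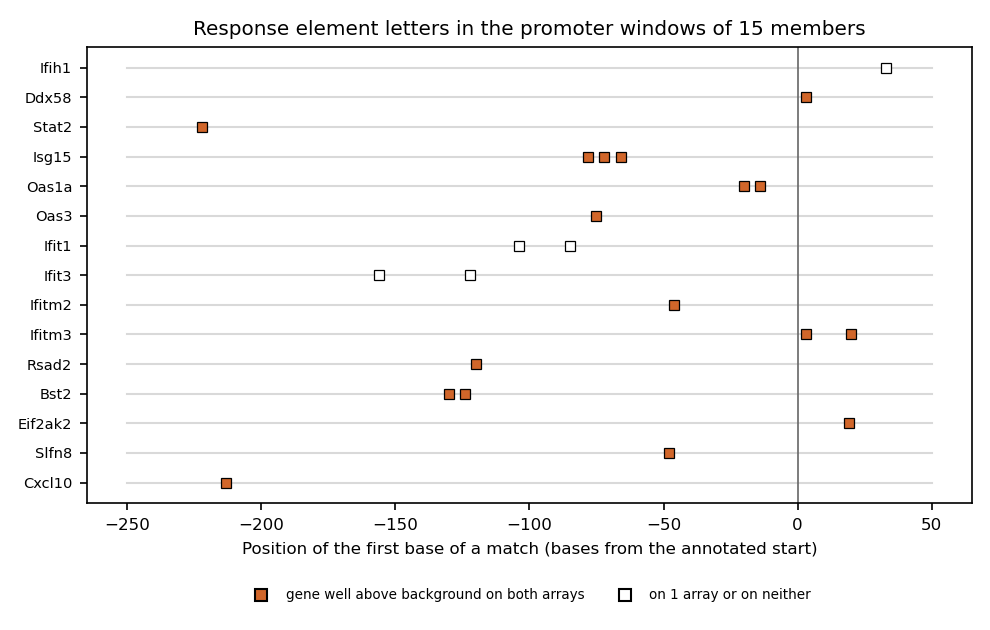
Positions of the response element core, on either strand, in the promoter windows of 15 members (one row per gene, bases from the annotated start; for Slfn8, the first of its 2 listed starts). Filled squares are genes well above background on both arrays, and open squares are Ifih1, whose match lies 33 bases after the start, Ifit1 and Ifit3.

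Of the 15 members with the motif, 12 passed the background limit on both arrays, 1 in Baf53b-expressing cells only and 2 on neither. Of the 13 with a window and no match, 10 passed on both arrays and 3 on neither. On both arrays 79.8% of all genes passed, so these counts are no result about the motif. Among the measured members with the motif, the median log2 difference was 0.00040, with 6 genes higher and 6 lower. Among those without it the median was -0.09, with 3 higher and 7 lower. Of all genes, 49.1% were higher. The range was -0.80 to 0.32 with the motif and -0.50 to 0.21 without it, so the ranges of both sets overlapped. In the brightest of 5 equal groups of all probes, the median of all probes was -0.06. Irf1, Irf3, Trim25 and Ifitm1, without the motif, lay there, as did Ifitm2 and Ifitm3, with it. A link between the motif and the difference was not tested.

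The values rest on processed signals, the brightness of a spot with its background subtracted and spatial trends removed. Signals are given as deposited, in array units. Differences are Baf53b- minus Baf53a-expressing cells on the log2 scale, after the 75th percentile of each array (signals of 1161 and 1128) was set to 0, and a gene with several probes is given as their mean. Behind each difference stands an error, which the scanner software estimates for the spots and which leaves out the spread between cultures. It was between 0.0645 and 0.37 for the 30 member probes measured on both arrays, with a median of 0.20. Levels of different probes cannot be set against each other. The label check rested on Actl6b, which encodes Baf53b: its signal was 3.40 in Baf53a-expressing cells, where it did not pass the background limit, and 119 in Baf53b-expressing cells, which bounds the difference at 14.5-fold or more. Actl6a, which encodes Baf53a, read 3806 and 3600, a difference of -0.04, and did not set the conditions apart. All 14 ES cell markers were well above background on both arrays, with a median difference of -0.08, 3 of them higher and 11 lower. Of 12 fibroblast markers, 10 (83.3%) passed the limit on both arrays, Col3a1 only in Baf53b-expressing cells and Postn on neither. Their median difference was 0.10. Of 11 immune cell markers, 9 (81.8%) passed on both arrays, and Tyrobp and Lyz2 on neither, with a median of 0.12. Both shares are near the 79.8% of all genes and are no result about these cell types. Most ES cell marker probes lay in the brightest of 5 equal groups of all probes, where the median of all probes was -0.06. Most fibroblast and immune marker probes lay in dimmer groups. The part of other cell types in the values below was not tested.

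**Figure D2:**
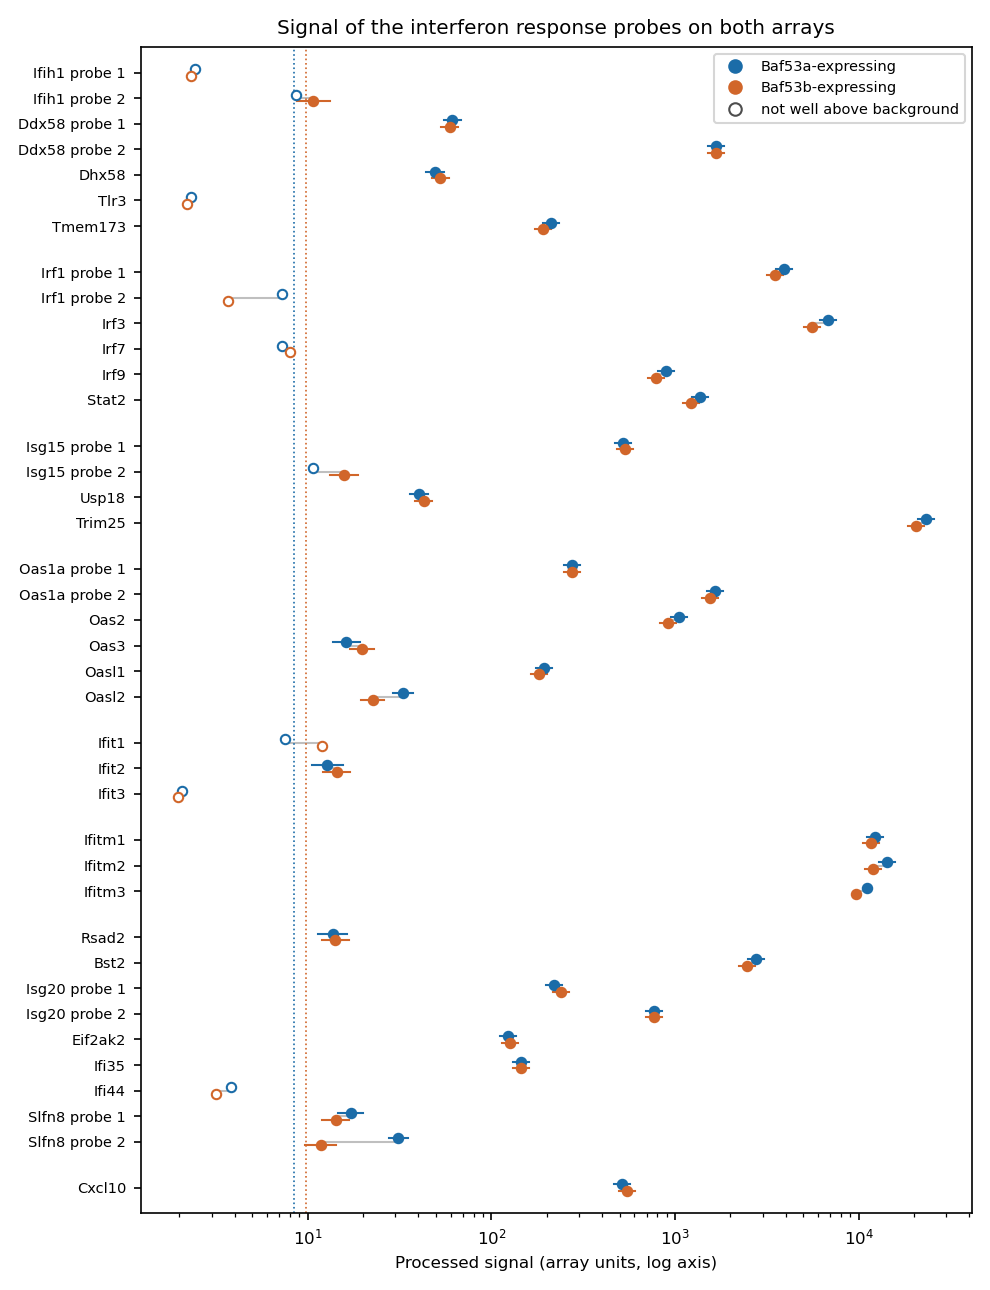
Processed signal of the 39 member probes (log axis, array units) on the array of Baf53a-expressing (blue) and of Baf53b-expressing cells (orange), in blocks by role, with bars of 1 error of the software. Open points were not well above background, dotted lines mark the lowest signal well above background on each array (8.45 and 9.75), and in nearly every row both points lie close together, with Slfn8 probe 2 the clearest exception.

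The nucleic acid sensors were measured for 3 of 5 members. Ddx58, which encodes RIG-I, gave signals of 61.3 and 59.2 with 1 probe and of 1675 and 1663 with another, in Baf53a- and Baf53b-expressing cells, and a log2 difference of 0.01, which became -0.02 under cyclic loess. Dhx58 encodes LGP2, a regulator of RIG-I and MDA5, and read 49.3 and 52.6, a difference of 0.14. Tmem173 encodes STING, the adaptor of cytosolic DNA sensing, and read 210 and 192, a difference of -0.09. All 3 differences were smaller than their error, which leaves out the spread between cultures. Ifih1 encodes MDA5. Of its 2 probes, 1 read 2.44 and 2.31, below the limit on both arrays, and the other passed the limit in Baf53b-expressing cells alone, at 10.7 against 8.68, a measured difference of 0.34 with an error of 0.47. For the other probes that passed on 1 array only, a bound is given, the bright value over the dim one or, where that was higher, over the lowest signal well above background on the dim array. In the former case it equals the measured ratio and carries its error. Tlr3 read 2.30 and 2.20 and was on neither array well above background.

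All 4 measured transcription factors were lower in Baf53b-expressing cells, under every scaling run. Among all genes, 8449 of 16608 were lower. The measured probes of the 4 factors lay in the fourth and the brightest of 5 equal groups of all probes. There the median difference of all probes was -0.02 and -0.06. Irf3, the factor that sensing activates first, read 6800 and 5543, a log2 difference of -0.25. Irf1, an activator of interferon and antiviral genes, read 3941 and 3492, a difference of -0.13, while its other probe was not well above background, and with that probe counted the gene stood at -0.53. Stat2 read 1366 and 1229, a difference of -0.11. Irf9, which binds DNA in a complex with Stat2, read 896 and 788, a difference of -0.14. Irf3 alone exceeded its error, by 0.25 against 0.20. Irf7, itself strongly induced by interferon and the amplifier of the response, read 7.28 and 8.05 and was not well above background in either condition.

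The ISG15 system attaches the ubiquitin-like protein Isg15 to other proteins. Isg15 read 518 and 537, a log2 difference of 0.09. A second Isg15 probe read 10.6 and 15.8, of which only the latter was well above background, a measured difference of 0.62 with an error of 0.44. Usp18, which removes Isg15 and restrains interferon receptor signalling, read 40.3 and 42.8, a difference of 0.13. Trim25, the ubiquitin ligase that acts on RIG-I, read 23330 and 20612, a difference of -0.14. With both probes counted Isg15 stood at 0.35. For the probes seen in both conditions the differences stayed within their errors.

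The OAS family makes oligoadenylates that activate RNase L. Oas1a read 276 and 275 with 1 probe and 1655 and 1543 with another, a log2 difference of -0.01. Oas2 read 1057 and 921, a difference of -0.16. Oasl1, a family member without synthetase activity, read 193 and 182, a difference of -0.04, and this became 0.03 with normexp background correction. These 3 genes lay within their errors. Oas3 read 16.2 and 19.7, a difference of 0.32 with an error of 0.32, the highest of all measured members. Oasl2 read 32.9 and 22.6, a difference of -0.50 with an error of 0.27. Both are dim, and with normexp, which draws dim signals together, Oas3 stood at 0.12 and Oasl2 at -0.15. Probes of near-identical family members, here Oas1a and its copies, may share signal, which was not examined.

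The Ifit proteins bind foreign RNA and are among the genes most strongly induced by interferon. Ifit1 read 7.51 and 12.0 and Ifit3 2.08 and 1.98, and neither was well above background on either array. Ifit2 read 12.8 and 14.4, near the lowest signals counted, and differed by 0.21 with an error of 0.37.

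The Ifitm proteins are membrane proteins that block the entry of viruses, and their probes lay among the brightest of 5 equal groups of all probes. Ifitm1 read 12309 and 11622, a log2 difference of -0.04 that became 0.01 under cyclic loess and 0.0082 under quantile normalization. Ifitm2 read 14348 and 11989, a difference of -0.22. Ifitm3 was read by 10 spots per array, which show the noise within an array. Its spots ran from 10545 through a median of 11089 to 11598 in Baf53a-expressing cells. In Baf53b-expressing cells they ran from 9351 through 9750 to 10000. On the scaled log2 values they ran from 3.18 to 3.32 and from 3.05 to 3.15. The spots of both arrays did not overlap, with a difference of -0.15 and an error of 0.0645. Of the other listed probes with several spots per array, those of Tap1 and Pdgfra did not overlap either. Those of Myd88, Igtp and H2-K1 did. The share of all such probes was not counted, so the lack of overlap is no result about Ifitm3. Its difference lay inside the central 95% of its brightness group, whose lower limit was -0.23. Spots on 1 array share its RNA and are not replicates of the condition, and the median difference of all probes in the same brightness group was -0.06. The 3 genes are similar in sequence, and shared signal between their probes was not examined.

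The other effectors act at several steps of infection. Bst2 (tetherin), which holds budding virus at the cell surface, read 2776 and 2461, a log2 difference of -0.13. Eif2ak2, which encodes PKR, the kinase that stops translation on double-stranded RNA, read 123 and 127, a difference of 0.09. Isg20, an exonuclease, read 220 and 239 with 1 probe and 766 and 768 with another, a difference of 0.10. Ifi35 read 145 on both arrays, a difference of 0.04 that became -0.01 under cyclic loess and -0.0090 with the arrays centred on their medians. Rsad2 (viperin) read 13.7 and 14.1, a difference of 0.08 that became -0.06 under quantile normalization. These 5 genes were all within their errors. Ifi44 read 3.84 and 3.16 and was not well above background in either condition. Cxcl10, a chemokine that attracts T cells, read 516 and 545, a difference of 0.12 with an error of 0.20.

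Slfn8, a member of the Schlafen family of growth and antiviral regulators, had the lowest difference of the measured members, -0.80 with an error of 0.24. Its 2 probes did not give the same size. The first read 17.2 and 14.3, a log2 difference of -0.23, and the second read 31.1 and 11.8, a difference of -1.36 with an error of 0.34. With normexp background correction the gene stood at -0.11, and with the brightest probe alone at -1.36. Schlafen genes have near-identical stretches, and Slfn9, a close relative outside the list, was higher in Baf53b-expressing cells with both of its probes, by 0.39 and 0.36. Whether these probes share signal was not examined. No probe was matched for Mx1 or Mx2, and both are left without a value.

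**Figure D3:**
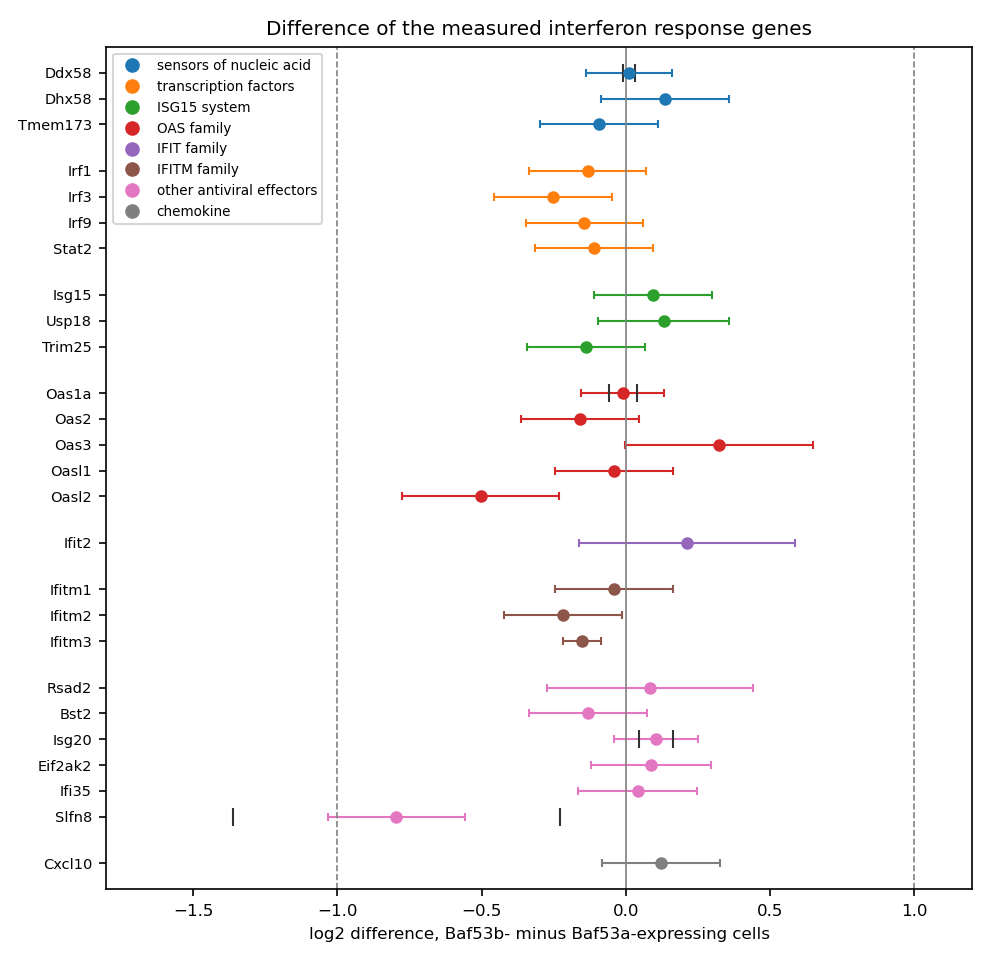
Log2 difference (Baf53b- minus Baf53a-expressing cells) of the 26 members measured on both arrays, coloured by role, with bars of 1 error of the software and ticks for single probes where a gene has several. Dashed lines mark 2-fold, the points of all genes lie inside them, and the second probe of Slfn8 lies outside.

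Of the 26 measured members, 11 (42.3%) were higher in Baf53b-expressing cells, against 49.1% of 16608 genes. Of the 26, 20 (76.9%) were less than 0.2 apart on the log2 scale, against 80.5% of all genes. Slfn8 and Oasl2 (7.69%) were at least 0.5 apart, against 2.35% of all genes. None of the 26 was 2-fold apart, against 0.193% of all genes. Of the 30 probes, 1 (3.33%), that of Slfn8, was 2-fold apart, against 0.253% of 29247 probes. Both probes of Slfn8 and that of Oasl2 lay in the dimmest of 5 equal groups of all probes. There the central 95% of all probes ran from -0.51 to 0.72. The shares of all genes and probes mix bright and dim probes, so these higher shares are no result about the list. The members' median of -0.04 stood beside -0.0032 for all genes, and under the scalings, background corrections and filters run it lay between -0.13 and -0.0085. The median of all probes moved as well, between -0.0524 and 0.0277. Being well above background on both arrays held for 26 of 32 members (81.2%), against 79.8% of all genes. Being so on neither held for 5 (15.6%: Tlr3, Irf7, Ifit1, Ifit3 and Ifi44), against 17.8%, and in Baf53b-expressing cells only for 1 (Ifih1), against 1.7%. A share near that of all genes is no result about the list.

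The error of the software was exceeded by 5 of the 30 member probes (16.7%), against 19.2% of all probes. These were the probes of Irf3, Oasl2, Ifitm2 and Ifitm3 and the second of Slfn8, and all 5 were lower in Baf53b-expressing cells. How many of all probes beyond their error were lower was not counted, so this direction is no result about the list. The probes of Irf3, Ifitm2 and Ifitm3 lay in the brightest group, where the median of all probes was -0.06. A difference beyond 2 errors was found for 2 of the 30 (6.67%), Ifitm3 and the second probe of Slfn8, against 3.41% of all probes. Ifitm3 was read by 10 spots per array, which lowers its error to 0.0645, against a median of 0.20 for the member probes. Irf3 and Ifitm2, at -0.25 and -0.22, differed more than Ifitm3, at -0.15, but stayed within 2 errors.

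Direction followed brightness among the members as it did among all probes. When all probes were ordered by brightness and divided into 5 equal groups, dimmest first, the median difference of all probes was 0.10, 0.05, 0.02, -0.02 and -0.06. The median of the member probes was 0.08, 0.07, 0.07, -0.11 and -0.14. In the dimmest group 4 of 7 member probes were higher in Baf53b-expressing cells, in the second 3 of 4, in the third 4 of 6, in the fourth 2 of 7 and in the brightest 0 of 6. The 6 brightest belonged to Ifitm1, Ifitm2, Ifitm3, Irf1, Irf3 and Trim25. The part of brightness in the lower values of these genes was not tested. Cyclic loess is a scaling that removes such a trend. Under it Irf3 stood at -0.21, Ifitm2 at -0.17, Ifitm3 at -0.10, Irf1 at -0.09, Trim25 at -0.08 and Ifitm1 at 0.01. The median of all measured members was then -0.0484, beside -0.0025 for all probes. Outside the range that holds the central 95% of the probes of its own group lay 2 of the 30, the second probe of Slfn8 and the probe of Irf3, against 5.03% of all probes. Irf3, at -0.25, lay just past the limit of -0.23.

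**Figure D4:**
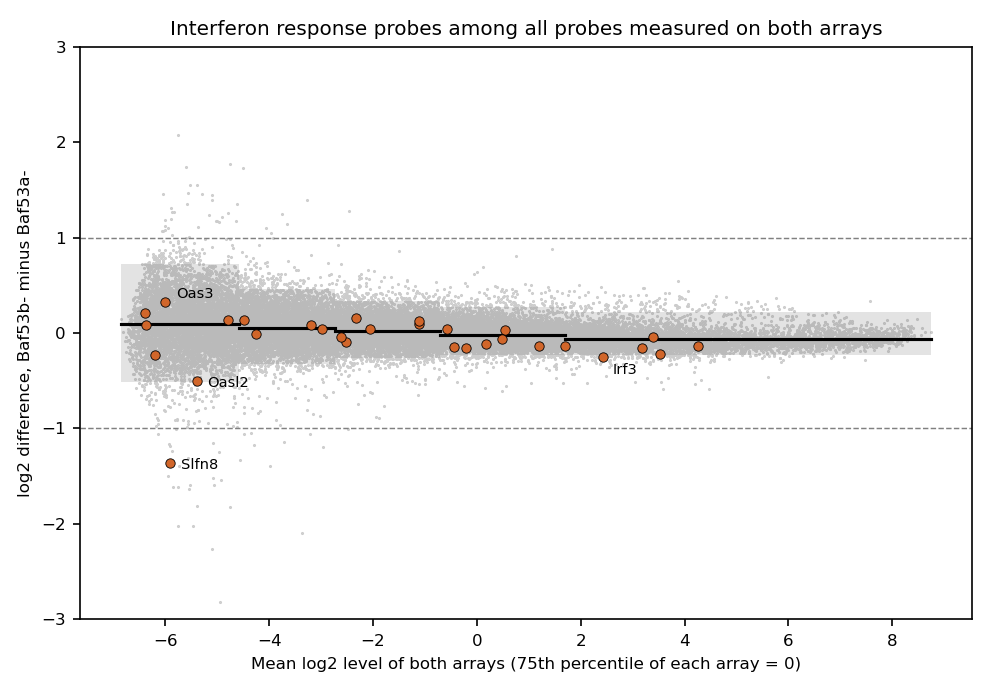
Log2 difference against the mean log2 level for 29247 probes measured on both arrays (grey) and the 30 member probes (orange). Black lines are the medians and grey bands the central 95% of each brightness group, dashed lines mark 2-fold, and the members follow the fall of the medians from 0.10 to -0.06, with Slfn8 far below.

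The other genes of the pathway were described from a list of 122 genes, of which 115 had a matched probe. Of these, 96 were measured in both conditions, with 46 higher and 50 lower, a median of -0.0074, and none 2-fold apart. Among the interferon genes themselves, Ifnb1 read 2.07 and 2.83, and it was not well above background on either array, nor were Ifna4 and Ifne. Ifna1 read 73.2 and 64.1, a log2 difference of -0.15. Ifna2 differed by 0.24 with 1 of its 2 probes, and the other was not well above background. Ifnk differed by 0.36 with an error of 0.22, Ifng by 0.05 and Ifnl3 by -0.02. A second Ifnl3 probe read 15.6 and 12.1 and exceeded background clearly in Baf53a-expressing cells alone, with a bound of 1.25-fold. The genes for alpha interferons resemble each other closely, and shared signal between their probes was not examined.

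The 9 receptors and kinases measured on both arrays were all less than 0.2 apart. Of the receptor chains, Ifnar1 differed by 0.03, Ifnar2 by -0.18, Ifngr1 by -0.07, Ifngr2 by -0.08, Ifnlr1 by -0.07 and Il10rb by -0.11. Of the kinases, Jak1 read 5334 and 5223, a log2 difference of 0.01. Jak2 differed by 0.05 and Tyk2 by -0.03. Passing the background limit in Baf53a-expressing cells only held for 0 of 32 members and 0.735% of all genes.

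All 15 adaptors, receptors and kinases of sensing with a probe were measured. Mavs, the adaptor of RIG-I and MDA5, read 3018 and 2500, a log2 difference of -0.23. Zbp1, a sensor of nucleic acid in the Z form, was the lowest of them, at -0.42 and -0.31 with its 2 probes. Ifi204 differed by -0.26 with an error of 0.31. Mb21d1, which encodes cGAS, differed by 0.02, with 0.23, -0.11 and -0.05 from its 3 probes. Myd88, the adaptor of most Toll-like receptors, differed by 0.09 with 10 spots per array and an error of 0.0646. Tbk1, Ikbke, Traf3, Traf6, Ticam1, Tlr7, Tlr9, Aim2, Ddx41 and Polr3a lay between -0.10 and 0.07. A second Tlr7 probe passed the background limit in Baf53b-expressing cells alone, with a bound of 1.33-fold.

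Of 6 other IRF factors and partners measured, 4 were higher and 2 lower, between -0.19 and 0.12, and Irf4 passed the background limit in Baf53b-expressing cells alone, with a bound of 1.47-fold. All 15 inhibitors lay between -0.15 and 0.16, 7 higher and 8 lower. Of 46 other interferon-induced genes, 24 were higher and 22 lower. The highest was Tap1, a transporter of peptides for MHC class I, which read 86.9 and 120, a log2 difference of 0.51. It was the only gene of the 96 at least 0.5 apart, which held for 2.35% of all genes. The lowest was Uba7, the activating enzyme of Isg15, which read 17.1 and 12.3, a difference of -0.43 with an error of 0.35. Gbp4, Slfn3 and Trim14 passed the background limit in Baf53a-expressing cells alone, with bounds of 1.39-fold for Gbp4 and 1.16-fold for Slfn3, and Cmpk2 in Baf53b-expressing cells alone, with a bound of 1.42-fold.

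**Figure D5:**
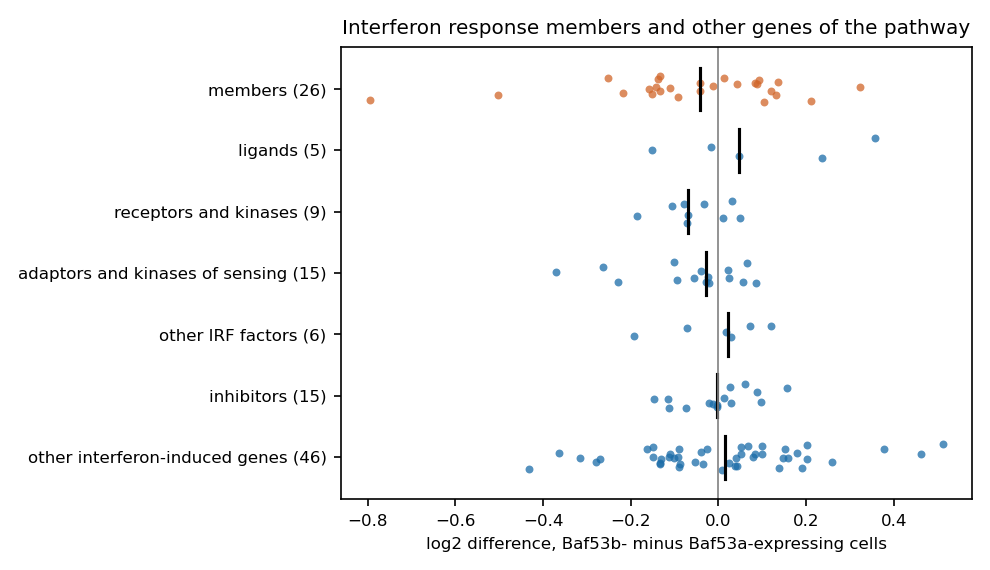
Log2 difference (Baf53b- minus Baf53a-expressing cells) of the 26 members and of 96 other pathway genes by role, with the number measured in brackets and black bars for medians; vertical scatter has no meaning. All medians lie between -0.07 and 0.05, with the members at -0.04.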

How the data were processed

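RNA of 1 culture per condition was hybridised to Agilent whole mouse genome arrays of 1 colour, on the same slide and in the same scan. The authors extracted the images with Agilent Feature Extraction 11.0.1.1, per the labels, and deposited, per spot, an intensity corrected for background and for spatial trends, its error and quality flags. The array design is annotated on mm9. The table of values that the authors deposited beside them holds ratios: over 30479 probes per array they equalled the mean processed signal divided by 1 number per array (1160 and 1126). The medians of its columns were 0.257 and 0.262, and how the authors chose those numbers is not given in the sources used here.

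Control spots and outlier spots were left out, of which 0 belonged to member probes. Each probe was taken as the mean log2 value of its spots, less the 75th percentile of its array. The software's flag for a signal well above background was required on 50% or more of the spots of a probe. A gene was taken as the mean of its probes that passed on both arrays, and a probe that passed on 1 array only was given a bound. Usable spots on both arrays were had for 39411 probes. Of these, 29247 passed the flag on both arrays, and 27410 had a RefSeq accession that a table of GRCm38.p6 genes pairs with a symbol. That table was used for names only. No spot was saturated. The number of arrays, 1 per condition, limits the precision of every difference, and p-values were not computed.

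The members, the other gene lists and the motifs were chosen with earlier results of these data known. Named in the text were all members and, of the other pathway genes, those at least 0.5 apart, those above background on 1 array only, the ligands, receptors, adaptors and kinases, and the highest and lowest, except that a result of this list is not reported here. The steps were tested on simulated data with changes larger than any member difference, so that test does not cover differences of the size reported here. Alternatives were quantile normalization, cyclic loess, centring on the median, no filter, a stricter filter and a weaker flag on dim probes, outlier spots kept, normexp (offset 50, on the median signal), the authors' table and the brightest probe of each gene. Calculations used Python 3.11.15 with numpy 2.4.6 and pandas 2.3.3, and R 4.3.3 with limma 3.58.1.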

Additional observations from a re-analysis of the deposited data

How the results depend on the processing

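No paired analysis was possible because each condition had 1 array, and for that reason no replicate could be left out. No member was 2-fold higher in any setting run. With the brightest probe of each gene, 1 member, Slfn8, was 2-fold lower, against 0. The members' median of -0.04 moved to -0.0920 with arrays centred on the median, which shifted all probes by -0.05, to -0.13 with the stricter filter (15 members, 4 of them higher) and to -0.0085 with normexp. The median of all probes was -0.0346 with the stricter filter and 0.0277 with normexp. The members' median less that of all probes was -0.0396 at first, -0.0975 with the stricter filter and -0.0362 with normexp. How many of all genes were higher with the stricter filter was not counted. The median of the other pathway genes, -0.0074, moved to -0.0321 under quantile normalization, -0.0307 under cyclic loess, -0.0584 with arrays centred on the median, -0.0232 with the stricter filter, 0.0198 with normexp and -0.0248 with the brightest probe. The share of all probes 2-fold apart, 0.253%, moved to 3.39% with no filter, 2.24% with the weaker flag, 0% with the stricter filter and 0.00684% with normexp. These shifts with filters follow from which probes enter, and for the other settings the cause was not tested. The weaker flag put 30 members above background on both arrays, 0 on 1 array only and 2 on neither. Every probe of the gene was above on both for 24 members, against 26 with at least 1 probe.

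Of the 26 members, 21 kept their sign in every setting that measured them, 8 of them higher and 13 lower. The sign of Ddx58, Ifi35, Ifitm1, Oasl1 and Rsad2 changed in at least 1 setting. For a gene with 1 probe, several settings cannot change the value or hardly do. Irf3 stood at -0.25 with each filter, outlier spots kept, the authors' table and the brightest probe. A kept sign therefore says little, and the share of all genes that kept theirs was not computed. With no filter and with the weaker flag, which add a dim probe to each, Irf1 moved from -0.13 to -0.53 and Isg15 from 0.09 to 0.35. Dim probes limit what can be read, since the lowest signals well above background were 8.45 and 9.75, and with 1 array per condition the difference between any other pair of cultures is unknown.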

Other observations

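Antigen presentation by MHC class I is a further target of interferon. These genes were grouped after their values were seen, so they are given as values only. Tap1 was read by 9 usable spots of Baf53a-expressing and 8 of Baf53b-expressing cells. They ran from 80.5 through a median of 87.2 to 92.6 in Baf53a-expressing cells and from 116 through 121 to 125 in Baf53b-expressing cells, with no overlap and a log2 difference of 0.51. As for Ifitm3, spots on 1 array share its RNA and are not replicates of the condition. The share of all probes with several spots that showed no overlap was not counted. Tap2, the other chain of the transporter, differed by 0.16 and Tapbp, which helps load the peptides, by -0.02, each with an error of 0.20. The class I heavy chains H2-K1, H2-D1 and H2-T23 differed by 0.08, 0.10 and 0.19, and B2m, their light chain, by -0.09. Of the immunoproteasome subunits, Psmb8 differed by -0.31 with an error of 0.22, Psmb9 by -0.13 and Psmb10 by -0.11. The differences of H2-K1, H2-D1, H2-T23, B2m, Psmb9 and Psmb10 were smaller than their errors.

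The guanylate-binding proteins are GTPases that act on microbes inside cells. They, too, are given as values only. Gbp2 differed by 0.20 with an error of 0.20, and Gbp3 by 0.26 with an error of 0.21. Gbp6 differed by 0.46, with 0.42 and 0.50 from its 2 probes and errors of 0.20 and 0.39. Its second probe was dim, at 11.6 and 16.0. Gbp4 passed the background limit in Baf53a-expressing cells alone. Of the related immunity GTPases, Irgm1 differed by 0.20, Tgtp1 by 0.15, Irgm2 by -0.28, Ifi47 by -0.13 and Igtp by -0.05. The differences of Tgtp1, Ifi47 and Igtp were smaller than their errors. The spots of Igtp overlapped between the arrays, from 166 to 197 in Baf53a-expressing and from 155 to 181 in Baf53b-expressing cells.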
